A study of Mus musculus with 7 samples.

Results

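*Tnfsf10* (TRAIL), death receptors and caspases were examined in the cervical spinal cord of hSOD1G93A mice with and without *Neat1*. The 8 genes were taken by gene symbol from the 55487 genes of the count table. They were the ligand *Tnfsf10*, the receptors *Tnfrsf10b* and *Fas*, the adaptors *Fadd* and *Ripk1*, the caspases *Casp8* and *Casp9*, and the caspase-8 inhibitor *Cflar*. All 8 were found, and all 8 had enough counts to enter the fit of 18449 genes. They were chosen by measured values, namely the difference in *Tnfsf10* between the same 7 libraries, because *Tnfsf10* stands in the study's list of changed genes. The differences of the 8 genes between the genotypes are therefore given as a description, and where calls among them are counted, the counts restate that choice.

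Each library was made from a single mouse of 8 weeks, 4 of them *Neat1*-KO; hSOD1G93A and 3 *Neat1*-WT; hSOD1G93A. The libraries are named by genotype and by the replicate number of the labels, 1 to 4 for *Neat1*-KO and 2 to 4 for *Neat1*-WT. Both groups carried hSOD1G93A, a human SOD1 transgene with a mutation of familial ALS that is kept in hemizygotes, and no group without the transgene was part of this comparison. *Neat1* encodes the long non-coding RNA of nuclear paraspeckles. The promoter of the transgene, the way *Neat1* was disrupted and the sex of each mouse are not given in the sources used here, and the study used both sexes. Total counts per library were between 19661878 and 26031517. Expression is given in CPM, the count relative to the scaled library size. *Neat1* was at 4.04 to 5.52 CPM in the *Neat1*-KO and at 80.5 to 118 CPM in the *Neat1*-WT libraries, so that every library was on the side its label gives.

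TRAIL is a membrane-bound or shed trimer of the TNF superfamily. When it binds a death receptor, the receptor recruits FADD, which brings procaspase-8 molecules together so that they activate each other. FLIP, the product of *Cflar*, enters the same complex in place of caspase-8 and limits its activation. Caspase-9 belongs to the mitochondrial arm, which starts with the release of cytochrome c. In the nervous system TRAIL is known mainly from microglia, astrocytes and infiltrating immune cells, and *Tnfsf10* is a classical interferon-induced gene.

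*Tnfsf10* (ENSMUSG00000039304) lies on the plus strand of chromosome 3 of GRCm38, from 27317028 to 27342427 in GENCODE M21. The sequence before its start is shown because *Tnfsf10* is the gene on which the comparison turns. It is RefSeq's sequence for GRCm38.p6, chr3:27316827-27317076 on the plus strand, which ends 1 base before the RefSeq start of the gene. Capitals mark the 49 bases that lie past the gene start of GENCODE.

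Tnfsf10: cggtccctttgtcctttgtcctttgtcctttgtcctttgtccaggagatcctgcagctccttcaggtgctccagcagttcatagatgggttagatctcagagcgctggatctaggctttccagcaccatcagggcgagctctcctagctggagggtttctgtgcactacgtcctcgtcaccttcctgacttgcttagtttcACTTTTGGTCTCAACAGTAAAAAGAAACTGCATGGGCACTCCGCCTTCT

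Promoters of 300 bases, 250 before and 50 after the RefSeq start, were listed for 7 of the 8 genes, with 2 for *Ripk1*. *Tnfrsf10b* was not among them. Each was searched on both strands for GAAANNGAA, the core of an interferon-stimulated response element, and for GTAAACA, the core bound by FOXO factors; these runs do not overlap each other in any promoter of the 8 genes. The *Tnfsf10* promoter held neither run, which says only that these letters are not in this window. The first run was found in a *Ripk1* promoter as GAAATCGAA on the gene's strand, starting 5 bases before the start. It was also found in the *Cflar* promoter, on the opposite strand, where the gene's strand reads TTCGGTTTC from 7 bases after the start base. Of all 32851 promoters, 8.56% held the first run and 3.65% the second. The GC content was 52.3% in the *Tnfsf10* promoter, close to the median of 52.7% over all promoters, and ranged from 42.0% for *Casp8* to 67.0% for the second *Ripk1* promoter.

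*Tnfsf10* was higher in *Neat1*-KO than in *Neat1*-WT mice, and its libraries did not overlap between the genotypes. *Neat1*-KO replicates 1, 2, 3 and 4 had 70, 110, 91 and 130 counts, or 3.60, 4.43, 4.22 and 4.96 CPM. *Neat1*-WT replicates 2, 3 and 4 had 51, 43 and 51 counts, or 2.31, 2.01 and 2.60 CPM. The lowest *Neat1*-KO library, replicate 1, was thus above the highest *Neat1*-WT library, replicate 4. The exact 95% Poisson intervals of these 2 libraries, which cover counting error only, overlapped at 2.80 to 4.54 CPM for the former and 1.94 to 3.42 CPM for the latter. *Neat1*-KO mice averaged 4.30 ± 0.564 CPM (SD, n = 4) and *Neat1*-WT mice 2.31 ± 0.296 CPM (SD, n = 3). The fitted log2 fold change was 0.90 with a standard error of 0.20, a fold of 1.87. Of the 18449 genes in the fit, 106 had a larger log2 fold change, and the median over all of them was 0.01. In these whole-tissue samples, more cells that express a gene and more RNA per cell cannot be told apart.

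The receptor of TRAIL was near the limit of what the libraries could measure. *Tnfrsf10b*, which encodes DR5, the death-signalling TRAIL receptor of the mouse, had 13, 16, 12 and 28 counts in *Neat1*-KO and 15, 20 and 16 counts in *Neat1*-WT libraries. These are 0.668, 0.645, 0.557 and 1.07 CPM against 0.679, 0.934 and 0.816 CPM. The groups overlapped, and only *Neat1*-KO replicate 4 was above every *Neat1*-WT library. The log2 fold change was -0.13 with a standard error of 0.35, and -0.37 without *Neat1*-KO replicate 4. With 120 counts in all 7 libraries, counting alone gives a coefficient of variation of 24.2% per library. A difference of the size of the standard error, or somewhat above it, could thus not be told from none at this depth. *Fas*, the receptor of FAS ligand, had 2.16, 1.81, 2.37 and 1.95 CPM in *Neat1*-KO and 2.17, 2.43 and 1.78 CPM in *Neat1*-WT libraries. Its ranges lay almost on top of each other, and the log2 fold change was -0.05 with a standard error of 0.22.

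The adaptors differed by less than the spread between mice. *Fadd*, the link between death receptor and caspase-8, had 4.88, 5.48, 5.89 and 5.19 CPM in *Neat1*-KO and 4.39, 5.23 and 6.83 CPM in *Neat1*-WT libraries. Every *Neat1*-KO library lay inside the *Neat1*-WT range, and the log2 fold change was -0.03 with a standard error of 0.18. *Ripk1*, a kinase that carries TNF receptor signals towards survival, apoptosis or necroptosis, had 7.50, 8.02, 8.49 and 7.40 CPM against 8.28, 7.42 and 8.46 CPM. It was the steadiest of the 8 genes in *Neat1*-KO mice, with a coefficient of variation of 6.43%, and the log2 fold change was -0.04 with a standard error of 0.13. *Fadd* shares 239 bases of exon with *Faddos* on the opposite strand. *Ripk1* shares 241 bases with *Serpinb6a* on the opposite strand and 511 bases with the pseudogene *Gm17084* on the same strand. The strand setting of the counting is not given in the sources used here, so reads from these shared bases are of uncertain origin.

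*Casp8*, the initiator caspase of death receptors, had 1.64, 3.51, 1.86 and 1.79 CPM in *Neat1*-KO and 1.901, 2.428 and 2.804 CPM in *Neat1*-WT libraries. *Neat1*-KO replicate 2 stood apart, above every *Neat1*-WT library, and the other *Neat1*-KO libraries were below them all. The log2 fold change was -0.10 with a standard error of 0.29, and -0.43 without *Neat1*-KO replicate 2. *Cflar*, its inhibitor and chromosomal neighbour, had 14.2, 24.1, 22.5 and 20.7 CPM against 18.4, 20.96 and 26.8 CPM. Here *Neat1*-KO replicate 1 was the lowest and *Neat1*-WT replicate 4 the highest library. The log2 fold change was -0.11 with a standard error of 0.17. *Cflar* lies on chromosome 1 from 58711508 to 58758884 and *Casp8* from 58795374 to 58847503, on the same strand.

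*Casp9*, the initiator caspase of the mitochondrial arm, was the only other member with a higher mean in *Neat1*-KO mice. It had 22.0, 27.9, 24.0 and 27.0 CPM in *Neat1*-KO and 20.8, 21.8 and 22.5 CPM in *Neat1*-WT libraries. The groups overlapped through *Neat1*-KO replicate 1, which lay between *Neat1*-WT replicates 3 and 4, and the other *Neat1*-KO libraries were above all *Neat1*-WT libraries. The *Neat1*-KO mean was 25.2 ± 2.69 CPM (SD, n = 4) and the *Neat1*-WT mean 21.7 ± 0.834 CPM (SD, n = 3). On the log2 scale the fold change was 0.22 with a standard error of 0.10. Its exons share 94 bases with *Cela2a* and *Ctrc* on the opposite strand.

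**Figure D1:**
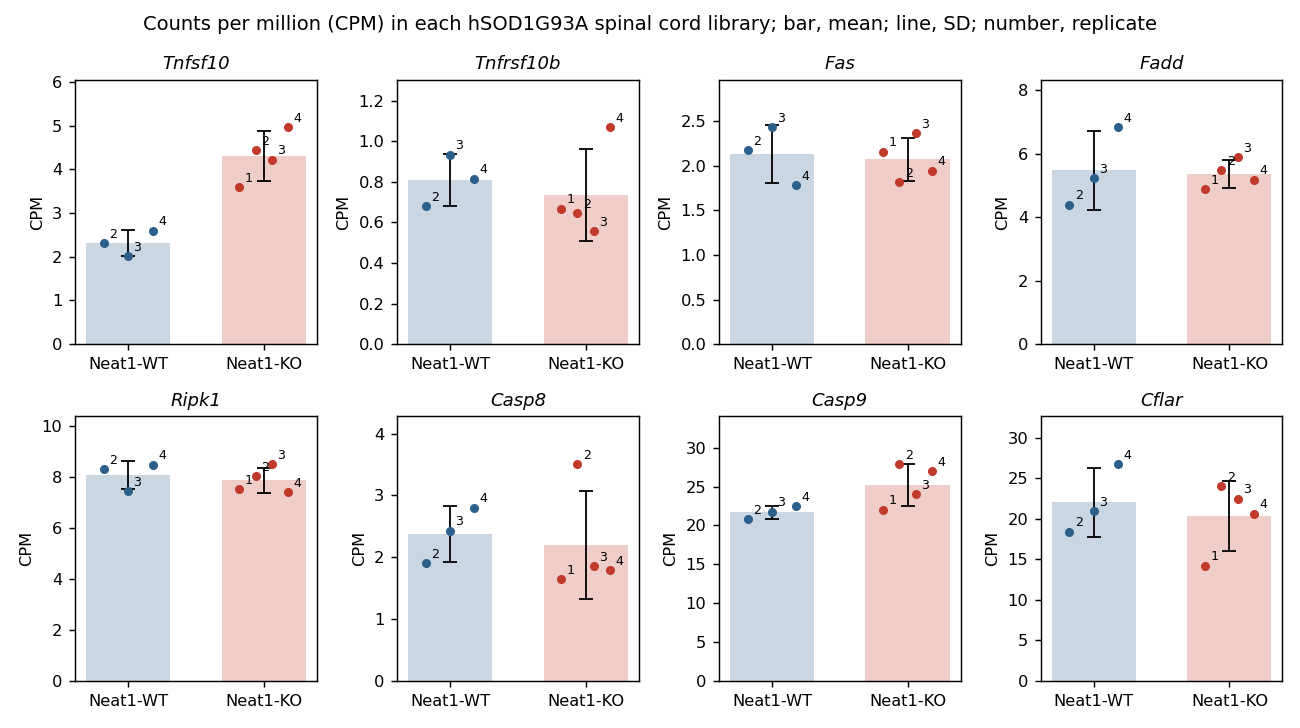
Expression of the 8 genes in CPM (y axes, each starting at 0) in the libraries of *Neat1*-WT; hSOD1G93A (blue, n = 3) and *Neat1*-KO; hSOD1G93A (red, n = 4) mice; points are libraries with their replicate numbers, bars are means and lines the SD. *Tnfsf10* is the panel in which the groups part, at 2.01 to 2.60 against 3.60 to 4.96 CPM, and *Casp8* shows *Neat1*-KO replicate 2 at 3.51 CPM, away from the others.

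Among the 8 genes, 2 had a log2 fold change above 0 and 6 below it, with a median of -0.04, where the median of all genes in the fit was 0.01. Only *Tnfsf10* exceeded the minimum fold of a call, 0.58 on the log2 scale, and the largest absolute log2 fold change of the other 7 was 0.22. A call required this fold and an adjusted p under 0.1 in edgeR's quasi-likelihood test. In edgeR 0 of the 8 genes met this rule, where 6 of all genes tested, or 0.0325%, did. The DESeq2 Wald test on the same genes met it for 1 of the 8, *Tnfsf10*, and for 27 of all genes. Without a filter on low counts edgeR also met it for *Tnfsf10* alone of the 8, and for 124 of 30996 genes, and limma-voom met it for 0 of the 8 and for 6 of all genes. *Tnfsf10* was the 1 member whose libraries did not overlap between the genotypes, where 2.91% of all genes did not overlap with *Neat1*-KO higher and 2.57% with *Neat1*-KO lower. The choice of genes used this contrast, so nothing is read from any of these counts.

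The direction for *Tnfsf10*, *Casp9* and *Ripk1* was the same in all 16 alternative fits, with a log2 fold change of *Tnfsf10* between 0.81 and 1.08. For *Tnfrsf10b*, *Fas*, *Fadd*, *Casp8* and *Cflar* the direction turned in 1 to 3 of the alternative fits, none of them one that changed only the scaling of the libraries. The log2 fold changes of these 5 genes were each smaller than their standard errors. So was that of *Ripk1*, which lay between -0.093 and -0.0027 in the alternative fits, so its constant sign shows no difference.

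Levels of different genes were compared per length, as CPM per kilobase of merged exons. In this measure the median over the 7 libraries was 4.33 for *Casp9*, 1.66 for *Cflar*, 1.34 for *Fadd*, 1.046 for *Fas*, 0.961 for *Ripk1*, 0.683 for *Tnfsf10*, 0.657 for *Casp8* and 0.125 for *Tnfrsf10b*. Only the steps from *Casp9* to *Cflar* and from *Casp8* to *Tnfrsf10b* were clear of the spread between libraries; all other neighbours in this order overlapped. *Casp9* stood at the 49.3rd to 56.3rd percentile of the genes in the fit, and *Tnfrsf10b* at the 1.06th to 4.15th percentile. The level per length of *Tnfsf10* was at the 9.30th to 11.6th percentile in *Neat1*-WT and at the 16.61st to 20.04th in *Neat1*-KO libraries. With the longest transcript in place of merged exons, *Casp8* at 0.735 and *Tnfsf10* at 0.720 changed places, and the rest of the order stayed.

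**Figure D2:**
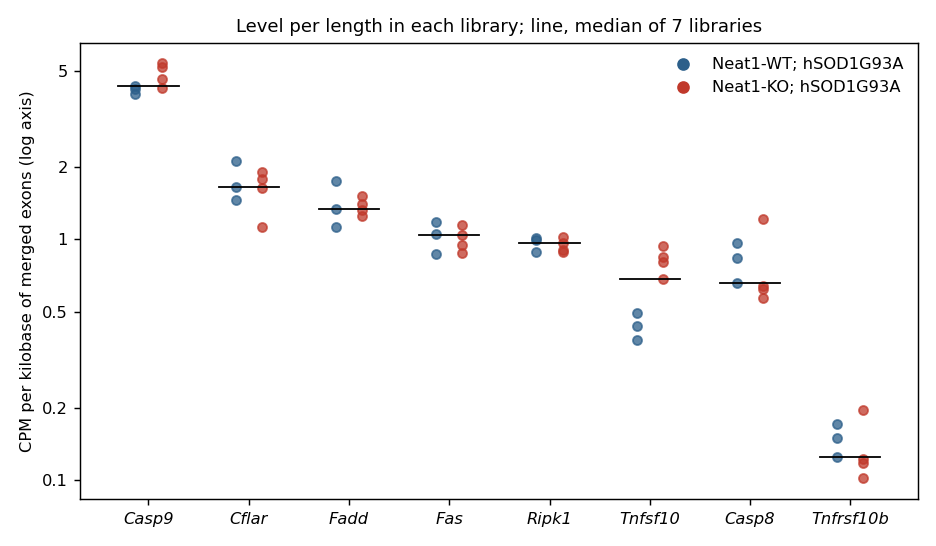
Level per length (y axis, CPM per kilobase of merged exons, log axis) of the 8 genes in order of their median (black line) over 7 libraries; blue points are *Neat1*-WT; hSOD1G93A and red points *Neat1*-KO; hSOD1G93A libraries. *Casp9* lies highest, between 4.01 and 5.37, *Tnfrsf10b* lowest, between 0.102 and 0.196, and the other 6 genes form a graded middle.

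Ligand and receptor are also given as a ratio of levels per length within each library, in which the library size cancels. The ratio of *Tnfsf10* to *Tnfrsf10b* was 5.57, 7.12, 7.85 and 4.81 in *Neat1*-KO replicates 1 to 4. In *Neat1*-WT replicates 2 to 4 it was 3.52, 2.23 and 3.30. Per length of merged exons every library thus held more ligand than receptor transcript, and the *Neat1*-KO libraries were above all *Neat1*-WT libraries. With the longest transcript the median of *Tnfrsf10b* was 0.214 in place of 0.125, and that of *Tnfsf10* 0.720 in place of 0.683. The size of the ratio of *Tnfsf10* to *Tnfrsf10b* thus depends on the length used. The ratio to *Casp8* was 1.20, 0.695, 1.25 and 1.52 against 0.667, 0.454 and 0.509, a near contact of the groups through *Neat1*-KO replicate 2. The ratio to *Casp9* varied least among the *Neat1*-KO libraries, from 0.157 to 0.182 in *Neat1*-KO and from 0.0911 to 0.114 in *Neat1*-WT libraries. The ratios to *Fas*, *Fadd*, *Ripk1* and *Cflar* did not overlap between the groups either. The mean log2 ratio differed between the genotypes by 0.69 for *Casp9* and by 1.07 for *Tnfrsf10b*, the ends of the range over the 7 partners. These ratios repeat the difference in *Tnfsf10* and are no separate evidence of it.

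**Figure D3:**
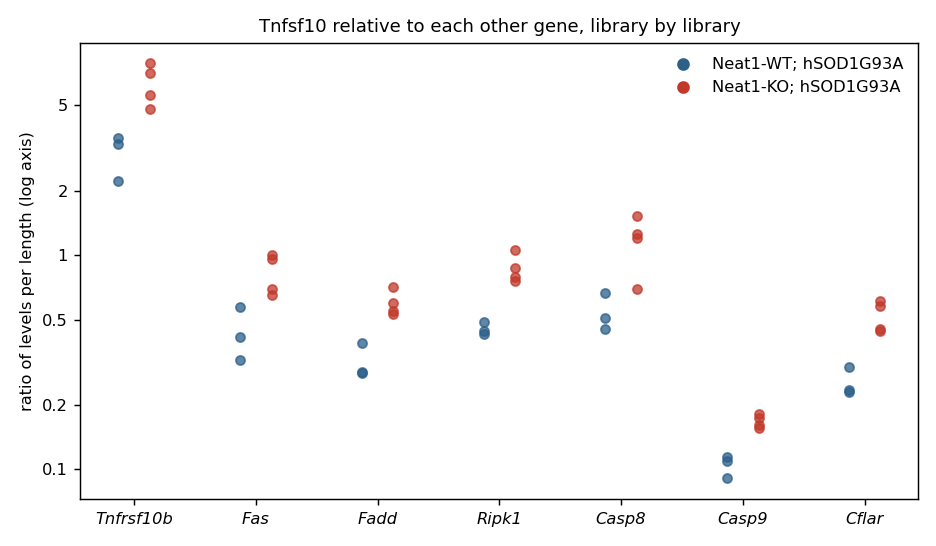
Ratio of the level per length of *Tnfsf10* to that of each other gene (y axis, log axis), with 1 point per library, blue for *Neat1*-WT; hSOD1G93A (n = 3) and red for *Neat1*-KO; hSOD1G93A (n = 4). For all 7 partners the red points lie above the blue ones, with the smallest gap for *Casp8*, at 0.695 against 0.667.

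Other apoptosis genes were taken as 5 lists with 63 genes, of which 52 had enough counts to be tested. The lists were other death ligands, other death and decoy receptors, adaptors of the receptor complexes with the necroptosis genes, other caspases, and the mitochondrial arm. By the edgeR test 0 of the 52 were called, and the same held for DESeq2 and limma-voom. At an unadjusted p under 0.05, 1 was higher and 0 were lower, where 2.24% of all genes were higher and 2.4% lower. In direction 24 were higher and 28 lower, with a median of -0.01 on the log2 scale, against 0.01 for all genes. The gene under that threshold was *Bbc3*, which encodes the p53-induced BH3-only protein PUMA. It had 6.88, 6.01, 3.94 and 5.49 CPM in *Neat1*-KO and 3.17, 4.39 and 2.91 CPM in *Neat1*-WT libraries. *Neat1*-KO replicate 3 was below *Neat1*-WT replicate 3, and the log2 fold change of 0.67 with a standard error of 0.22 had an unadjusted p of 0.00946 and an adjusted p of 0.962 in edgeR. Libraries that did not overlap were seen for 1 of the 52, no larger a share than the 2.91% of all genes, namely for *Apaf1*, which encodes the scaffold that activates caspase-9; it was named after its values were seen. The lowest *Neat1*-KO library of *Apaf1* had 8.75 CPM and the highest *Neat1*-WT library 8.74 CPM, with a log2 fold change of 0.14 and a standard error of 0.13.

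The other ligands were scarce. *Fasl*, *Tnf* and *Tnfsf15* had at most 3 counts in any library and *Lta* at most 10, so that only *Tnfsf12* (TWEAK) was tested, at a log2 fold change of 0.03 with a standard error of 0.19. *Tnfsf10* was thus, next to *Tnfsf12*, the only death ligand of the list with enough counts for the fit. Among the 9 tested receptors the values ran from 0.32 for *Tnfrsf1b*, the TNF receptor without a death domain, to -0.34 for *Tnfrsf11b*, which encodes osteoprotegerin, a soluble decoy that binds RANKL and TRAIL. Osteoprotegerin had 3.85, 4.72, 4.32 and 2.71 CPM in *Neat1*-KO and 5.43, 4.06 and 5.25 CPM in *Neat1*-WT libraries, and the groups overlapped. Among the 12 tested adaptors, the highest was *Birc3*, a ubiquitin ligase that holds RIPK1 in the survival complex, at 0.47 with a standard error of 0.26, and the lowest *Traf1* at -0.10. The necroptosis genes *Ripk3* and *Mlkl* had at most 7 and 10 counts and were not tested. Of the caspases, *Casp12* was highest at 0.23 and *Casp1*, which processes interleukin-1 beta, lowest at -0.36, while *Casp14* had 0 counts in every library. In the mitochondrial arm, below *Bbc3*, the lowest value was -0.40 for *Birc5* (survivin), with a standard error of 0.32. The lowest adjusted p of the 52 genes in edgeR was that of *Bbc3*, 0.962.

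**Figure D4:**
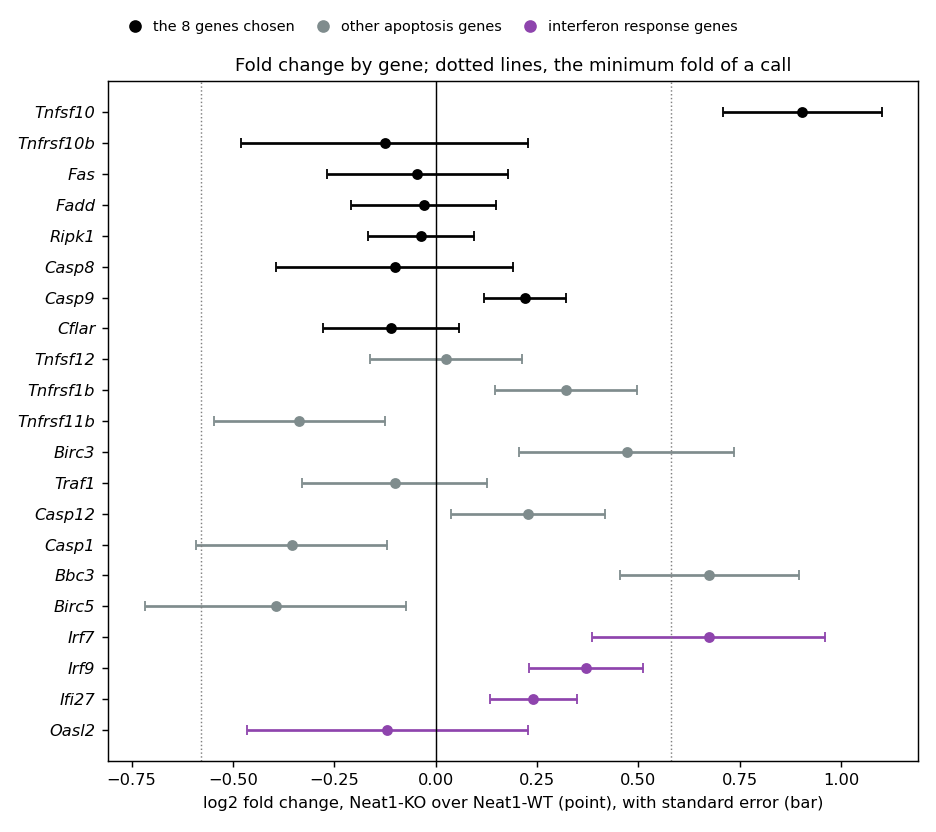
Log2 fold change of *Neat1*-KO over *Neat1*-WT (x axis, points) with its standard error (bars) for the 8 genes (black), the named genes of the other apoptosis lists (grey) and of the interferon response list (purple); dotted lines mark 0.58 in either direction. *Tnfsf10* lies farthest from 0 at 0.90, followed by *Bbc3* and *Irf7* at 0.67, and 7 of the black points lie between -0.13 and 0.22.

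Because *Tnfsf10* is known as an interferon-induced gene, a list of 21 interferon response genes was set beside it, of which 20 were tested. By the edgeR test 0 of them were called, and the same held for DESeq2 and limma-voom. At an unadjusted p under 0.05, 3 were higher and 0 lower, beside the 2.24% of all genes that were higher. In direction 17 were higher and 3 lower, and their median was 0.16 on the log2 scale, where 51.8% of all genes were higher and the median was 0.01. The 3 genes were *Irf7*, *Irf9* and *Ifi27*. *Irf7*, the master regulator of type I interferon genes, had 3.34, 4.84, 3.20 and 2.71 CPM in *Neat1*-KO and 1.901, 3.221 and 1.478 CPM in *Neat1*-WT libraries, with a log2 fold change of 0.67 and a standard error of 0.29. *Irf9*, a subunit of the interferon-activated factor ISGF3, had 9.30, 13.2, 10.7 and 10.6 CPM against 8.10, 9.15 and 8.16 CPM, without overlap, at 0.37 with a standard error of 0.14. *Ifi27* was at 0.24 with a standard error of 0.11. The lowest value was -0.12 for *Oasl2*, an oligoadenylate synthetase-like gene. The adjusted p of *Irf7*, *Irf9*, *Ifi27* and *Oasl2* in edgeR was 0.992 or above.

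The counts for the interferon list rested on several libraries. *Neat1*-KO replicate 2 was the highest library for 11 of the 20 genes, and *Neat1*-WT replicate 2 the lowest for 8. The summed level was 193 CPM in *Neat1*-KO replicate 2, 144 to 168 CPM in the remaining libraries of that genotype and 130 to 164 CPM in *Neat1*-WT mice. The count of 3 genes under an unadjusted p of 0.05 became 0 without *Neat1*-KO replicate 2, 0 without *Neat1*-WT replicate 2, 1 without *Neat1*-WT replicate 4 and 0 with *Xist* as a covariate, which was tried because both sexes were used. The part of the interferon response genes in the *Tnfsf10* result was not tested.

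**Figure D5:**
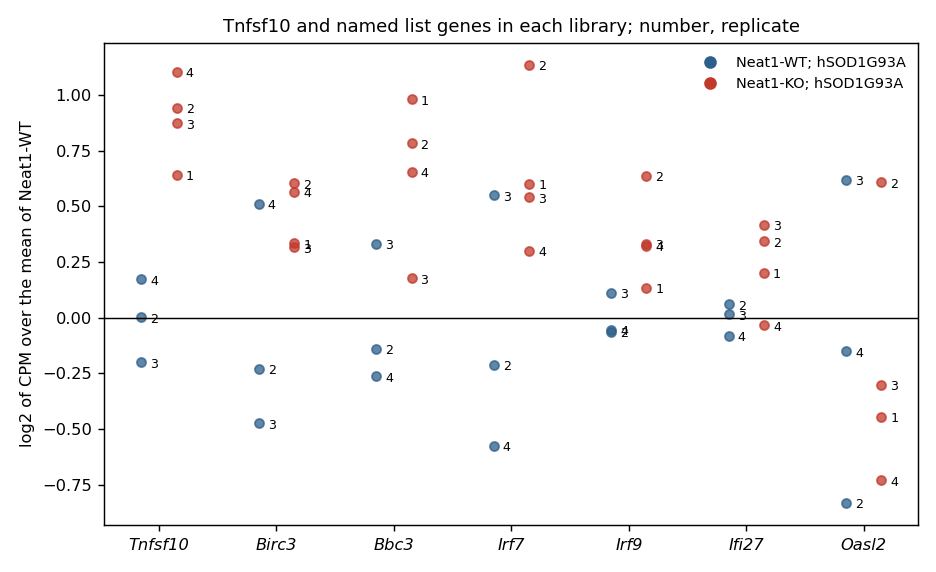
Log2 of the CPM of *Tnfsf10*, *Birc3*, *Bbc3* and 4 interferon response genes relative to the mean of the *Neat1*-WT libraries (y axis), with 1 point per library and its replicate number; blue is *Neat1*-WT; hSOD1G93A and red *Neat1*-KO; hSOD1G93A. *Neat1*-KO replicate 2 is the top red point for *Irf7*, *Irf9* and *Oasl2*, and the colours part fully for *Tnfsf10* and *Irf9*.

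The labelled tissue was checked by marker lists of 9 cell types. Motor neuron genes were measured in every library, and their summed level was 278 to 338 CPM in *Neat1*-KO and 360 to 428 CPM in *Neat1*-WT libraries, so that it moved with the genotype as *Tnfsf10* did, in the opposite direction. Only the sum parted the genotypes. Taken singly, 0 of the 6 genes were without overlap, where 2.57% of all genes were so with *Neat1*-KO lower. All 6 motor neuron genes had a log2 fold change below 0, with a median of -0.25. In edgeR 3 of them, *Slc18a3*, *Slc5a7* and *Prph*, had an unadjusted p under 0.05, although 0 were called. Of all genes, 2.4% were lower at this threshold. These 3 were also the most abundant of the 6, so the sum weighs them most. *Chat* was at -0.09 with a standard error of 0.10, *Isl1* at -0.13 with 0.28 and *Mnx1* at -0.36 with 0.20. The part of the motor neuron difference in the *Tnfsf10* result was not tested. The summed levels of cells known to make TRAIL overlapped between the genotypes: microglia were at 180 to 262 CPM in *Neat1*-KO and 178 to 248 CPM in *Neat1*-WT, and astrocytes at 4529 to 5983 and 4934 to 6080 CPM. Of the 8 microglia genes, 7 had a log2 fold change above 0 and 1 below it, with a median of 0.06. Of the 5 astrocyte genes, 2 were above 0 and 3 below it, with a median of -0.002. In edgeR 0 genes of either list had an unadjusted p under 0.05. T and NK cell genes were near the floor, at 0.257 to 0.605 and 0.226 to 0.306 CPM, with *Cd3d* and *Ncr1* at 0 in every library. Neutrophil genes were at 1.18 to 2.37 and 1.63 to 3.17 CPM, and red blood cell genes at 5.80 to 12.5 and 8.31 to 13.6 CPM. Oligodendrocyte, endothelial and fibroblast levels also overlapped, at 31860 to 34820 and 33410 to 40950 CPM, at 155 to 172 and 143 to 189 CPM, and at 82.3 to 220 and 72.0 to 234 CPM. Of these lists, all 5 oligodendrocyte genes had a log2 fold change below 0, with a median of -0.16 and 1, *Mobp*, at an unadjusted p under 0.05 in edgeR. Taken singly, 1 of these 5 genes was without overlap and lower in *Neat1*-KO, beside the 2.57% of all genes. All 5 fibroblast genes had a log2 fold change above 0, with a median of 0.27 and 1, *Lum*, at an unadjusted p under 0.05 in edgeR. The part of any of these cell types in the *Tnfsf10* result was not tested either.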

How the data were processed

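Per the labels and the study's methods, directional libraries of poly(A) RNA were read as pairs. The authors checked the reads with FastQC 0.11.7, trimmed them with Trimmomatic 0.38, aligned them with HISAT2 2.1.0, converted the alignments with SAMtools 1.9 and took gene counts of uniquely mapped reads from featureCounts 1.6.3. The submitters' processing notes give mm10. The annotation release and the strand setting are not given in the sources used here. The authors deposited raw read counts of 55487 genes, not normalized. GENCODE M21 (GRCm38) named 55227 of them, and the other 260 hold 0.00446% of the counts. Depth was 19661878 to 26031517 counts per library; Poisson intervals cover counting error only. The counts of replicate pairs differed by more than sampling noise (chi-square per gene, 7.63 to 16.7). Pairs with *Neat1*-KO replicate 1 were highest, at 13.53 to 16.7, and all other pairs were at 7.63 to 12.65.

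Genes were filtered with filterByExpr, scaled by TMM (factors of 0.991 to 1.01) and fitted with edgeR 4.0.16 (glmQLFit and glmQLFTest, R 4.3.3), with Benjamini-Hochberg adjustment over 18449 genes. The biological coefficient of variation was 0.128. Calls needed an adjusted p under 0.1 with a log2 fold change beyond 0.58 in either direction, the thresholds of the study. DESeq2 1.42.0, limma 3.58.1 (voom), other filters and scalings, a replicate block, *Xist* as a covariate and each library left out in turn were alternatives. Tables and plots were made with Python 3.11.15, pandas 2.3.3, scipy 1.17.1 and matplotlib 3.10.9. On simulated data for these 4 and 3 libraries, run on 18281 genes, edgeR called 98 of 100 genes with a log2 change of 1. With a log2 change of 2 it called 100 of 100, and 5 unchanged genes were called. The simulation gave every gene the same biological coefficient of variation, 0.128, and changed only genes with a mean above 1 CPM. At the levels of *Tnfsf10* and *Tnfrsf10b* the fitted trend of this coefficient was higher, at 20.1% and 27.3%. The rates are thus not those of genes as low as these. BLAST+ 2.17.0 found no copy of the 8 genes with at least 90% identity over at least 50% of the longest transcript.

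The 8 genes and all lists were chosen with earlier results of these data known. Named by rule were the 8 genes, *Neat1* and the 5 genes most like *Tnfsf10*. In the other apoptosis and interferon response lists, the rule took every gene called or at an unadjusted p under 0.05 in edgeR. It also took the highest and lowest tested gene of each of these lists. Genes with too few counts for the test, cell type markers and genes that share exons were named apart from this rule. *Apaf1* was named after its values were seen. Protein sequences were not used here.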

Additional observations from a re-analysis of the deposited data

Results flagged for a closer look

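Each of 22 results in the *Neat1*-KO group of 4 libraries was checked for a library that stands apart, by the gap to its nearest neighbour as a share of the group's range. Chance flags about 1 in 20, or 1.1 of the 22, and 2 exceeded Dixon's critical value. For *Casp8* the share was 0.886, from *Neat1*-KO replicate 2 at 3.51 CPM, where the other *Neat1*-KO libraries were at 1.64 to 1.86 CPM. For *Casp12*, an inflammatory-group caspase of the endoplasmic reticulum, the share was 0.949, from *Neat1*-KO replicate 1 at 2.77 CPM, where the others were at 3.74 to 3.79 CPM. The groups of 3 *Neat1*-WT libraries were too small for this check.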

How the results depend on the processing

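Of 430 values recomputed under an alternative, 408 were counted as unchanged. For the log2 fold changes of the 13 named list genes, this meant only that the gene stayed uncalled, whatever the shift. With *Xist* as a covariate, for example, *Oasl2* went from -0.119 to -0.769, *Irf7* from 0.674 to 0.235 and *Birc5* from -0.395 to 0.015. For the remaining values it meant staying within the spread of the main value or within 1.5 times a main count. The 6 genes called among all genes became 124 without a filter on low counts, 27 with the DESeq2 Wald test and 39 with the replicate block; leaving out 1 library gave 3 to 31, namely 31 without *Neat1*-KO replicate 1, 11 when *Neat1*-WT replicate 4 was dropped and 3 without *Neat1*-WT replicate 3. Other apoptosis genes at an unadjusted p under 0.05 were 2 with the replicate block and 1 to 5 with 1 library left out, with 2 without *Neat1*-KO replicate 1 or 3 and 5 without *Neat1*-WT replicate 4. Interferon response genes at that threshold were 0 with *Xist* as a covariate and 0 to 4 with 1 library left out. With *Xist* as a covariate the log2 fold change of *Tnfsf10* was 1.08 and that of *Tnfrsf10b* 0.14; with 1 library left out they ranged from 0.81 to 0.99 and from -0.37 to -0.011. The causes were not tested. The longest transcript in place of merged exons moved the level per length of 5 genes, *Tnfrsf10b*, *Fas*, *Ripk1*, *Casp9* and *Cflar*.

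Same-numbered libraries of the genotypes did not deviate together, with correlations of -0.238, -0.162 and -0.012 for numbers 2, 3 and 4. Not every library correlated best with its own number. These values gave no sign that the numbers pair the mice. With so few shared numbers and libraries they cannot exclude it. The replicate block gave a log2 fold change of 0.98 for *Tnfsf10*. Depth limits *Tnfrsf10b* most, at 12 to 28 counts per library, and the untested ligands.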

Other observations

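The pattern of *Tnfsf10* over the 7 libraries was compared with that of 16543 genes with a mean of at least 1 CPM, as Pearson's r of log2 CPM. The highest values were 0.977 for *Gprasp1*, 0.968 for *Gad1* and *Acox3*, 0.967 for *Slc6a5* and 0.961 for *Amy1*. The highest of so many values over only 7 libraries are large by selection, and no chance level was computed for them. *Gad1* encodes a GABA-synthesizing enzyme and *Slc6a5* the neuronal glycine transporter, both markers of inhibitory neurons. Their log2 fold changes were small, 0.14 with a standard error of 0.06 and 0.20 with a standard error of 0.07, beside 0.90 for *Tnfsf10*. All 5 genes were higher in the *Neat1*-KO mean, as the likeness measure favours, and libraries of the same genotype share that difference. Of the other 7 of the 8 chosen genes, *Casp9* had an r of 0.84 with *Tnfsf10*, and the rest had values between -0.338 and 0.108, over the same 7 libraries. Among the named genes of the other lists, values of similar size were seen for *Birc3* (0.806), *Casp1* (-0.799), *Irf9* (0.772), *Casp12* (0.701) and *Tnfrsf1b* (0.673), while *Irf7* had 0.503 and *Ifi27* 0.498. These list genes were named by the same contrast, as extremes of their lists or by unadjusted p. *Tnfsf10* was chosen by that contrast too, so large values among them follow in part from the choice. A genotype difference also enters the r of *Casp9*, and nothing is read from these values.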
